A study of Mus musculus with 8 samples.

Results

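Caspases and the receptors that engage them were followed here through 8 genes, namely *Fas*, *Tnfrsf10b*, *Fadd*, *Cflar*, *Casp8*, *Casp9*, *Casp6* and *Casp1*. They were chosen by name as members of the cell death machinery, with earlier results of these data known. Each was found in the deposited gene table by its Ensembl identifier, so that 8 of 54532 listed genes are described. All 8 passed the filter on low counts that left 9971 genes for testing. Mouse small intestinal organoids, which are epithelial cultures grown from isolated crypts in Matrigel with EGF, NOGGIN and R-spondin1, were either left as controls (4 libraries) or treated with RANKL, the ligand of the TNF family receptor RANK (4 libraries). The dose of RANKL, the duration of treatment and the sex and age of the donor mice are not given for these libraries in the sources used here, and the strains of the study were kept on a C57BL/6J background. Nothing in the labels says that replicates came from separate cultures or animals, so the p-values measure the spread between these libraries, which may be technical.

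In the extrinsic route to apoptosis, a ligand clusters a death receptor such as FAS (encoded by *Fas*) or the TRAIL receptor (encoded by *Tnfrsf10b*), the adaptor FADD binds the receptor's death domain and recruits caspase-8, and c-FLIP, the catalytically inactive relative of caspase-8 encoded by *Cflar*, takes part in the same complex and restrains it. In the intrinsic route, cytochrome c released from mitochondria drives assembly of the apoptosome, which activates caspase-9. Caspase-6 is an effector caspase, whereas caspase-1 is activated by inflammasomes and cleaves pro-interleukin-1β, pro-interleukin-18 and gasdermin D. In the intestinal epithelium these routes are known for their part in cell turnover and in the response to infection and inflammation. Caspases are made as inactive precursors, so a transcript level does not measure their activity.

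Within the annotated genome (GRCm38), *Fas* lies at chr19:34290666-34327772, *Tnfrsf10b* at chr14:69767472-69784411, *Cflar* at chr1:58711508-58758884, *Casp8* at chr1:58795374-58847503, *Casp9* at chr4:141793612-141815976, *Casp6* at chr3:129901425-129914103 and *Casp1* at chr9:5298517-5307265, all on the plus strand, and *Fadd* at chr7:144577318-144582463 on the minus strand. *Cflar* and *Casp8* are thus on the same strand of chromosome 1. No exon of these 8 genes overlaps an exon of another gene on its own strand. Exons of *Casp9* overlap those of *Cela2a* and *Ctrc*, and exons of *Fadd* those of *Faddos*, on the opposite strand, and the study's counting was strand-specific.

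The 250 bases upstream of the annotated start are shown for *Fas* and *Cflar*, the receptor and the inhibitor whose transcripts both rose with RANKL, because RANK is known to signal through NF-κB and AP-1. Capitals mark matches to the letters TGANTCA (an AP-1 type motif, read as TGAGTCA here) and GGG and CC parted by any 5 bases (a loose form of the NF-κB motif). The sequences are from RefSeq on GRCm38.p6, 5′ to 3′ on the plus strand, at chr19:34290409-34290658 for *Fas* and chr1:58711241-58711490 for *Cflar*. The start of a window's gene is that of this source, and for *Fas* and *Cflar* it differs slightly from the position given above.
Fas: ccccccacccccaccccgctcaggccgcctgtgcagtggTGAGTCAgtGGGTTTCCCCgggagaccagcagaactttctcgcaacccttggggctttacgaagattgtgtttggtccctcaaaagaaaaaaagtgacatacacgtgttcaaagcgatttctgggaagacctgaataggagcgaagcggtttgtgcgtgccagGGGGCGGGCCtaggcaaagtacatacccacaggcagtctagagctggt
Cflar: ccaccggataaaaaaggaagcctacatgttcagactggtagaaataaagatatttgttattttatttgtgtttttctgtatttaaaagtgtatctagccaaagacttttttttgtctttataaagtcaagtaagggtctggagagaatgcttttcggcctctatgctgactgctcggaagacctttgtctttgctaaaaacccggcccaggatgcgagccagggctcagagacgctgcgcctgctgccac

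Windows of this length were present for 7 of the 8 genes, the exception being *Tnfrsf10b*, and both strands were searched. The *Casp8* window (chr1:58802252-58802501) lay within the gene as placed above, and the *Fadd* window overlapped its gene. The stricter NF-κB consensus, known as the κB motif, was in 0 of the 7 windows and in 7.25% of 32851 windows of all genes. The loose form was searched after that count had been seen, and was in 4 of the 7 windows (*Fas*, *Casp1*, *Casp6* and *Casp9*) and in 45.8% of all windows. In *Fas*, its matches began 202 and 48 bases before the start, as GGGTTTCCCC and GGGGCGGGCC. TGANTCA, also added at that point, was in 1 of the 7 windows, that of *Fas*, where it began 211 bases before the start, and in 6.75% of all windows. The *Cflar* window held none of the 3. These matches describe letters in a window and show no binding.

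The 8 libraries held 583663 to 7807298 counts, a 13.4-fold range, with a median of 3911808 in the controls and 1613410 with RANKL. Control replicate 4 and RANKL replicate 1 were the shallowest, so that 1 count was worth 1.71 and 1.63 CPM there, the usual unit of counts scaled to a common library total. Spearman correlations between libraries, over genes, were 0.910–0.936 within groups and 0.905–0.927 between groups. Summed epithelial markers (7 genes) stood at 6880–8000 CPM in controls and 6560–7130 CPM with RANKL. Of 8 immune markers, none passed the filter, and *Cd3e* and *Itgax* were at 0 in every library. *Csf1r* had counts in every library, with a mean of 5.29 CPM in controls and 4.95 CPM with RANKL. Those means were 1.85 and 0.584 CPM for *Cd68*, and 0.159 and 1.19 CPM for *Fcer1g*. Summed M cell markers (6 genes, 5 of them higher) stood at 43.0–46.4 CPM in controls and 1730–1980 CPM with RANKL, while *Gp2* was at 0 in all libraries. Of these 5, only *Ccl9* reached the level of the filter on low counts in every control. That the others were tested depended on the RANKL libraries. Among all tested genes, 13.6% were called higher. Most of the sum with RANKL was *Spib* (1490–1760 CPM). The other called markers had RANKL means from 10.6 CPM (*Sox8*) to 82.6 CPM (*Marcksl1*).

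Both death receptors and the inhibitor rose with RANKL, whereas none of the 4 caspases and not the adaptor passed the test. At an adjusted p of 0.05 in edgeR's quasi-likelihood test, 3 of the 8 genes were called, all higher, beside 25.9% of all 9971 tested genes called in either direction, 13.6% called higher and 12.4% called lower. The groups did not overlap for 4 of the 8 genes, beside 24.6% of all tested genes. The filter on low counts asks for a set level in at least 4 libraries, the size of a group. *Fas* and *Tnfrsf10b* met it through the RANKL libraries, since fewer than 4 controls reached that level. The median log2 fold change of the 8 genes was 0.35, and that of all tested genes was 0.00, with quartiles of -0.26 and 0.26. The 8 genes were chosen with earlier results of these data known, so these comparisons are no independent test of them as a set. Levels below are CPM scaled by the TMM normalisation factors, fold changes are RANKL against control from the fitted model, and the exact permutation test over all 70 assignments of 4 against 4 cannot go below a two-sided p of 0.0286.

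**Figure D1:**
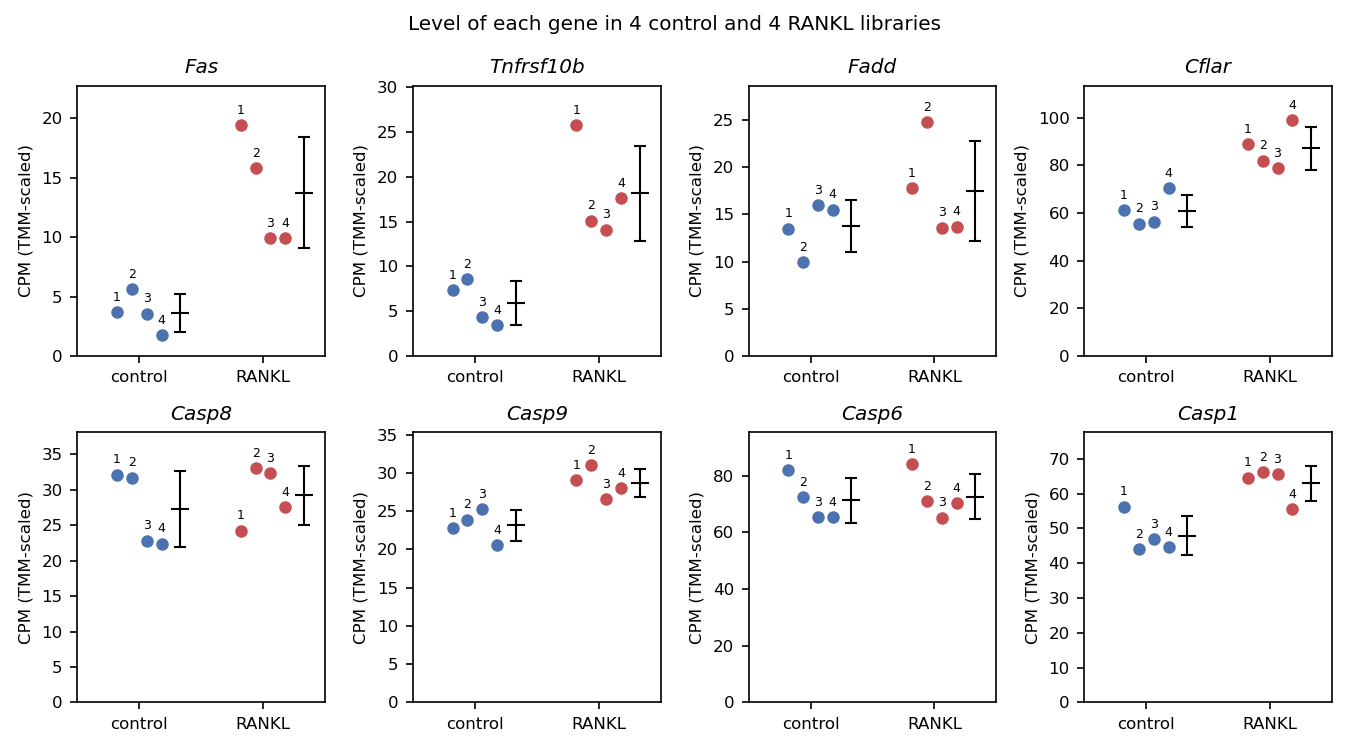
Each panel plots one gene's level in CPM (TMM-scaled, linear axis from 0) in 4 control (blue) and 4 RANKL (red) libraries, with replicate numbers above the points and bars for the mean and SD. The groups are apart for Fas, Tnfrsf10b, Cflar and Casp9, and overlap for Fadd, Casp8, Casp6 and Casp1.

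*Fas* was the lowest of the 8 genes in both groups and had the largest fold change among them. Its level was 3.69, 5.64, 3.55 and 1.72 CPM in control replicates 1 to 4, and 19.4, 15.8, 9.91 and 9.89 CPM in RANKL replicates 1 to 4. Every RANKL library was above every control library. The mean went from 3.65 ± 1.6 to 13.7 ± 4.68 CPM (SD, n = 4 each). The fitted log2 fold change was 1.64 (SE 0.31, 95% interval 1.01–2.26), a 3.11-fold rise, with an edgeR adjusted p of 0.00013. These values rest on 65 counts over the controls and 72 over the RANKL libraries, among them 1 count in control replicate 4 and 12 in RANKL replicate 1. The ratio of the pooled counts per total was 3.12, with a 95% interval of 2.2–4.43 that covers counting error only.

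*Tnfrsf10b* showed the same arrangement of groups at slightly higher levels. The controls stood at 7.38, 8.59, 4.31 and 3.44 CPM and the RANKL libraries at 25.8, 15.1, 14.1 and 17.6 CPM. The lowest RANKL library was thus above the highest control. The mean rose from 5.93 ± 2.45 to 18.2 ± 5.32 CPM (SD, n = 4 each), with a log2 fold change of 1.36 (SE 0.27, 95% interval 0.81–1.92), a 2.57-fold rise, and an edgeR adjusted p of 0.00029. The counts were 109 over the controls and 97 over the RANKL libraries, and control replicate 4 held 2 of them. Pooled counts per total gave a ratio of 2.5 (95% interval 1.88–3.32, counting error only).

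RANKL replicate 1, one of the shallow libraries, had the highest level of both receptors, and control replicate 4, the other, had the lowest. Without both libraries, a choice made after seeing the data, the log2 fold change was 1.47 for *Fas* (edgeR adjusted p = 0.0015) and 1.19 for *Tnfrsf10b* (edgeR adjusted p = 0.0028). With library depth (the log2 total) added to the model, these values were 1.39 (edgeR adjusted p = 0.02) and 1.36 (edgeR adjusted p = 0.013). The coefficient of variation was 43.8% and 34.0% for *Fas* in control and RANKL libraries, and 41.3% and 29.3% for *Tnfrsf10b*, against 6.43% to 30.1% in either group over the other 6 genes.

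*Cflar* was among the most abundant of the 8 genes and rose less, but with a narrower spread. It was at 61.1, 55.5, 56.3 and 70.5 CPM in the controls and at 88.8, 81.9, 78.7 and 98.9 CPM with RANKL. The groups did not overlap. From a mean of 60.9 ± 6.89 it reached 87.1 ± 8.91 CPM (SD, n = 4 each), with a log2 fold change of 0.55 (SE 0.12, 95% interval 0.30–0.81), a 1.47-fold rise, and an edgeR adjusted p of 0.0011. This value rests on 950 counts in the controls and 505 with RANKL. The 3′ tags were counted per gene, so they do not separate the long and short forms of c-FLIP, which differ in structure.

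*Fadd*, the adaptor between both receptors and caspase-8, did not pass the test. Its control levels were 13.5, 9.93, 16.0 and 15.5 CPM, and its RANKL levels were 17.8, 24.8, 13.6 and 13.7 CPM. The groups overlapped, and RANKL replicate 2 stood highest. The log2 fold change was 0.35 (SE 0.24, 95% interval -0.13–0.84) with an edgeR adjusted p of 0.3, so the interval spans both no change and a rise larger than that fitted for *Cflar*. It rests on 215 control and 98 RANKL counts, and without RANKL replicate 2 it was 0.11 (edgeR adjusted p = 0.82).

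**Figure D2:**
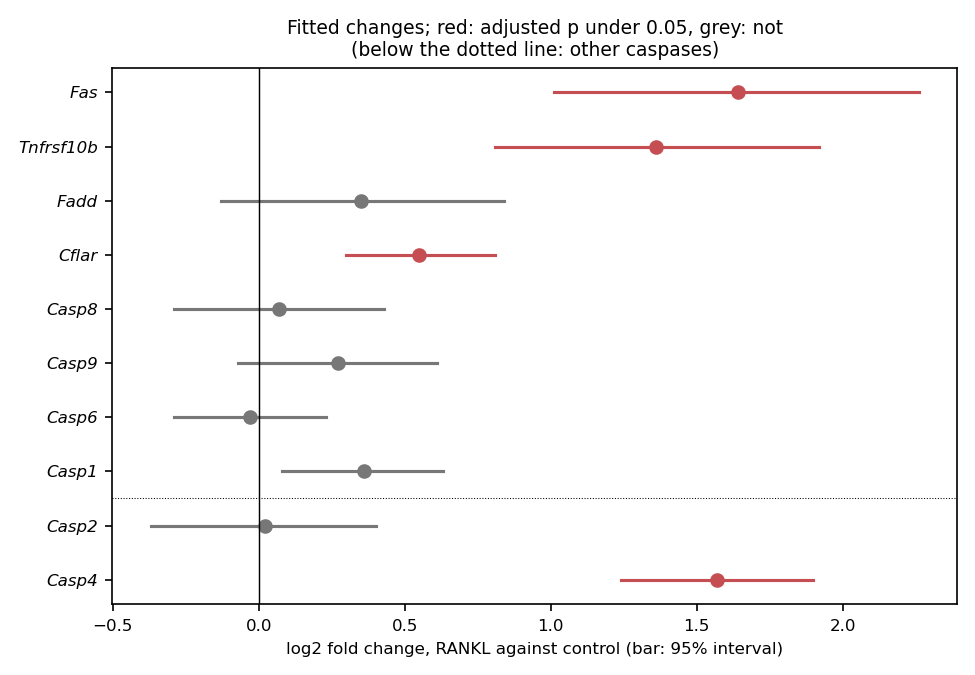
Points give the fitted log2 fold change (RANKL against control) of the 8 genes and, below the dotted line, of Casp2 and Casp4, with bars for the 95% interval; red marks an adjusted p under 0.05. Fas, Tnfrsf10b, Cflar and Casp4 are red, and the interval of Casp1 lies above 0 while its adjusted p is 0.051.

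The initiator caspases showed smaller differences. *Casp8* was at 32.1, 31.7, 22.8 and 22.4 CPM in controls and at 24.2, 33.0, 32.3 and 27.5 CPM with RANKL. These ranges overlapped over most of their width, and the log2 fold change was 0.07 (SE 0.18, 95% interval -0.29–0.43) with an edgeR adjusted p of 0.8. *Casp9* stood at 22.8, 23.9, 25.3 and 20.6 CPM in controls and at 29.1, 31.0, 26.6 and 28.0 CPM with RANKL. Here the groups did not overlap, and the exact permutation test gave a p of 0.0286, the smallest possible with 4 against 4. In edgeR's test, however, its log2 fold change of 0.27 (SE 0.17, 95% interval -0.07–0.61) was not called. The edgeR p was 0.12 before adjustment and 0.25 after it. The mean of *Casp9* was 23.2 ± 1.98 CPM in controls and 28.7 ± 1.84 CPM with RANKL (SD, n = 4 each).

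*Casp6*, the effector caspase of the group, was nearly level between the conditions. The controls were at 81.9, 72.5, 65.4 and 65.3 CPM and the RANKL libraries at 84.0, 70.9, 65.2 and 70.3 CPM. Replicate 1 was the highest library of both groups. With a log2 fold change of -0.03 (SE 0.13), the 95% interval of -0.29–0.23 had the same lower bound as for *Casp8* and a lower upper bound.

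*Casp1*, the inflammasome caspase, lay just outside the threshold. Its level was 56.3, 44.0, 46.9 and 44.7 CPM in controls and 64.6, 66.1, 65.7 and 55.5 CPM with RANKL. Of the RANKL libraries, 3 were above every control, and RANKL replicate 4 was just below control replicate 1. The means were 48.0 ± 5.67 and 63.0 ± 5.03 CPM (SD, n = 4 each), and the log2 fold change was 0.36 (SE 0.14, 95% interval 0.08–0.63). Its edgeR adjusted p was 0.051, and the exact permutation p was 0.0571. The adjusted p ran from 0.018 to 0.19 over the alternative settings, being 0.018 without control replicate 1, 0.045 without RANKL replicate 4 and 0.11 in DESeq2.

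Ordered by level in the controls, the 8 genes ran from *Casp6* (71.3 CPM) through *Cflar* (60.9), *Casp1* (48.0), *Casp8* (27.2), *Casp9* (23.2), *Fadd* (13.7) and *Tnfrsf10b* (5.93) to *Fas* (3.65). Reads in this assay come from the 3′ end of transcripts, so counts were not divided by length. The order is that of counts, and numbers of transcripts were not measured. Neighbours in this order whose ranges were apart were *Casp1* and *Casp8*, *Casp9* and *Fadd*, and *Fadd* and *Tnfrsf10b*, and the other neighbours overlapped. With RANKL, *Cflar* (87.1 CPM) came before *Casp6* (72.6) and *Tnfrsf10b* (18.2) before *Fadd* (17.5), although the ranges of both pairs overlapped. *Fas* stayed last, at 13.7 CPM.

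The balance of inhibitor and caspase was read within each library as the log2 ratio of *Cflar* to *Casp8* counts, which needs no scaling between libraries. It was 0.93, 0.81, 1.30 and 1.62 in controls and 1.84, 1.30, 1.28 and 1.84 with RANKL. The groups overlapped, and the difference of 0.40 did not pass the exact permutation test (p = 0.143, and 0.143 adjusted over the 2 ratios tested). The log2 ratio of *Fas* to *Cflar* was -4.03, -3.27, -3.94 and -4.79 in controls and -2.15, -2.35, -2.96 and -3.29 with RANKL. Only RANKL replicate 4 fell below the highest control, by a small margin. The difference between the means was 1.32, with an exact permutation p of 0.0571 (0.114 adjusted over the 2 ratios). Fewer than 30 *Fas* counts per library stand behind this ratio.

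**Figure D3:**
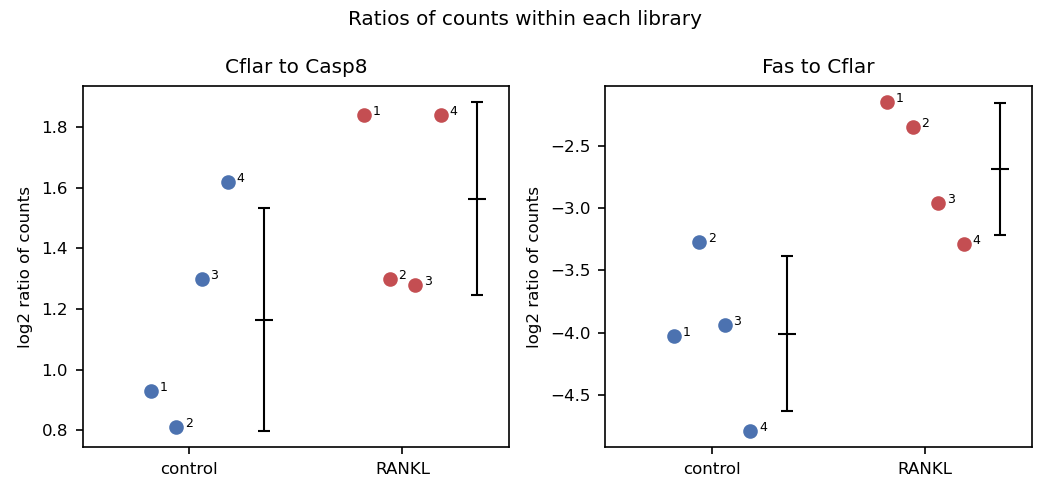
Both panels plot the log2 ratio of counts within a library (pseudocount 0.5) for controls (blue) and RANKL (red), with replicate numbers beside the points and bars for the mean and SD of 4 libraries. The groups overlap in both panels, and for Fas to Cflar only RANKL replicate 4 (-3.29) and control replicate 2 (-3.27) cross.

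Among the 6 other caspase genes of the list, 4 were tested and 1 rose. *Casp4*, which encodes mouse caspase-11, the sensor of cytosolic lipopolysaccharide, lies beside *Casp1* at chr9:5308828-5336783. It was at 23.2, 20.4, 28.4 and 36.1 CPM in controls and at 53.3, 88.1, 78.2 and 69.8 CPM with RANKL. The groups were well apart, and the log2 fold change was 1.57 (SE 0.16) with an edgeR adjusted p of 6e-09. *Casp2* had a log2 fold change of 0.02 (SE 0.19), which did not pass the threshold. *Casp12* and *Casp14* had 2 counts each over all libraries and were not tested.

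Of 18 further genes for death receptors, ligands and adaptors, 12 were tested, 5 rose and 1 fell, and their median log2 fold change was 0.14. *Tnf*, the ligand of TNF receptor 1, went from 0.945 ± 0.567 to 8.97 ± 1.68 CPM (SD, n = 4 each). That is a log2 fold change of 3.48 (SE 0.39), which rests on 13 and 55 counts. *Tnf* passed the filter on low counts through the RANKL libraries, its highest control being at 1.72 CPM. *Tnfsf10*, which encodes TRAIL, the ligand of the *Tnfrsf10b* product, rose by 1.20 (SE 0.23) on the log2 scale, from 9.47 ± 5.26 to 26.5 ± 3.00 CPM. Ligand and receptor of this pair were therefore both higher with RANKL, though neither met the filter on low counts through the controls alone. *Tnfsf10* fell short of it in control replicate 4, which held 1 count. Without that library, the log2 fold change of *Tnfsf10* was 1.11. *Fasl*, the gene of the FAS ligand, had 1 count over all libraries and was not tested.

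Other genes of that list belong to TNF receptor signalling and necroptosis. *Tnfrsf1a*, which encodes TNF receptor 1, rose by 0.49 (SE 0.14), *Ripk3*, the kinase of necroptosis, by 1.04 (SE 0.23), and *Cyld*, a deubiquitinase of TNF receptor complexes, by 0.86 (SE 0.12) on the log2 scale. *Mlkl*, the effector of necroptosis, held 39 and 17 counts and was not tested. *Tax1bp1*, an adaptor for the ubiquitin-editing protein A20, fell by 0.32 (SE 0.10) on the log2 scale. With library depth added to the model, *Ripk3* stood at 1.69 (edgeR adjusted p = 0.00029) and *Tnfrsf1a* at 0.78 (edgeR adjusted p = 0.00089). *Ripk3* held 1 count in control replicate 4, short of the filter on low counts, which it met through the RANKL libraries. It stood at 0.95 without control replicate 4 and at 0.88 without RANKL replicate 4. The call for *Tnfrsf1a* was lost without RANKL replicate 4 (edgeR adjusted p = 0.059), and that for *Tax1bp1* without RANKL replicate 2 (edgeR adjusted p = 0.072).

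**Figure D4:**
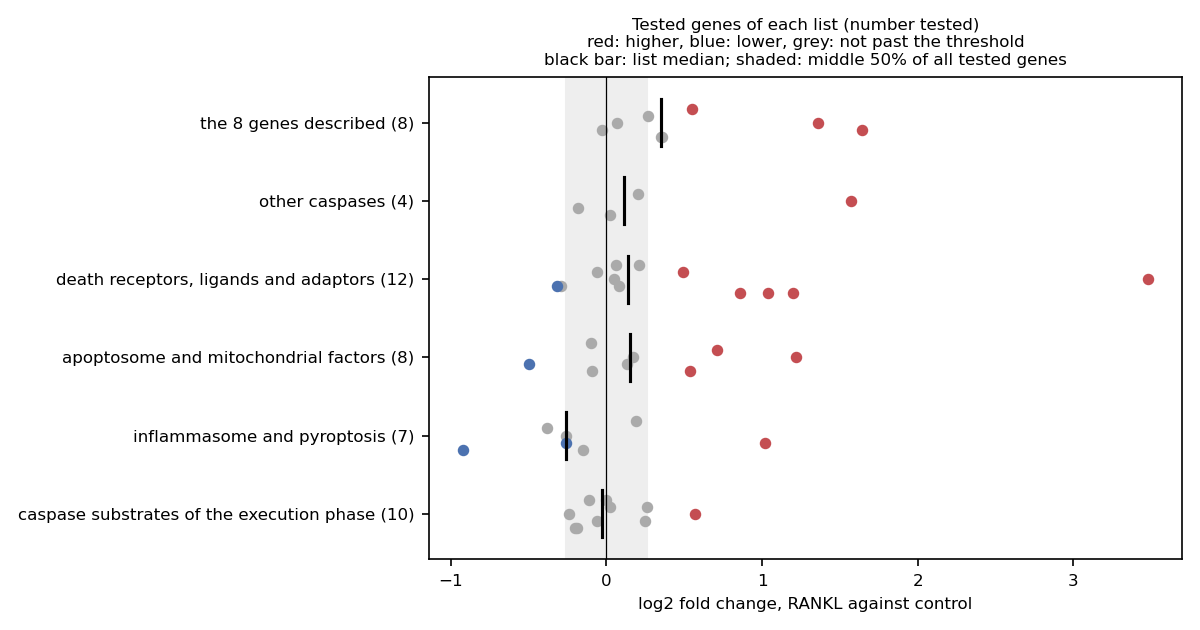
Points give the log2 fold change (RANKL against control) of each tested gene in 6 groups of genes, red if called higher, blue if called lower and grey otherwise; black bars are medians and the shaded band holds the middle 50% of all tested genes. The 8 genes have a median of 0.35, and the inflammasome list has a median of -0.26.

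Of 9 genes for the apoptosome and mitochondrial factors, 8 were tested, 3 rose and 1 fell. *Htra2*, a mitochondrial protease that antagonises IAP proteins, rose from 12.4 ± 4.39 to 33.1 ± 3.39 CPM (SD, n = 4 each), that is, by a log2 fold change of 1.22 (SE 0.20). *Diablo*, another IAP antagonist, rose by 0.54 (SE 0.19) on the log2 scale, and *Cradd*, an adaptor of caspase-2, by 0.71 (SE 0.24). An exon of *Diablo* overlaps *Gm49027* on its own strand, so its counts are uncertain. *Endog*, a mitochondrial nuclease, fell by 0.50 (SE 0.14) on the log2 scale. Leaving out any one of control replicate 2 and RANKL replicates 1, 2 and 4 ended the call for *Diablo* (edgeR adjusted p up to 0.12), and leaving out control replicate 2 or RANKL replicate 3 or 4 that for *Cradd* (edgeR adjusted p up to 0.13). The call for *Endog* was lost with the library total as a covariate (edgeR adjusted p = 0.066).

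Of 12 inflammasome and pyroptosis genes, 7 were tested, with 1 higher and 2 lower. *Gsdmd*, which encodes gasdermin D, the pore-forming substrate of caspase-1 and caspase-11, rose from 17.5 ± 2.68 to 33.0 ± 7.64 CPM (SD, n = 4 each), that is, by a log2 fold change of 1.02 (SE 0.18). *Nlrp6*, an epithelial inflammasome sensor, fell by 0.92 (SE 0.11) on the log2 scale, from 313 ± 38.2 to 166 ± 14.5 CPM. *Pycard*, which encodes the adaptor ASC, fell by 0.26 (SE 0.09) on that scale. That last call was lost when any single library other than control replicates 3 and 4 was left out (edgeR adjusted p 0.069 to 0.13). *Il1b* had 1 count over all libraries. The caspase substrates of the execution phase had 1 call among 10 tested of 12 listed, namely *Panx1*, the pannexin channel that caspases open, which rose by 0.57 (SE 0.14) on the log2 scale.

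Across these 5 lists, 15 of 41 tested genes were called (11 higher, 4 lower), with a median log2 fold change of 0.05. Calls in the lists are read against the 25.9% of all tested genes called, 13.6% higher and 12.4% lower, as given above. The lists, too, were chosen with earlier results of these data known.

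Markers of other cell types were read beside these results. Stromal markers (8 genes, summed) stood at 4.33–20.6 CPM in controls and 21.3–26.6 CPM with RANKL. The only one of them that was tested, *Pdgfrb*, rose by 2.53 (SE 0.30) on the log2 scale, and *Dcn* was at 0 in every library. *Pdgfrb* met the filter on low counts through the RANKL libraries, its controls being at 2.16 to 5.37 CPM. The mean of *Pdgfrb* went from 3.87 to 19.0 CPM and made up most of the sum with RANKL. Means of *Acta2*, *Col1a1* and *Lum* were lower with RANKL, and those of *Col3a1*, *Col1a2* and *Pdgfra* higher. The highest mean among these was 4.68 CPM, that of *Acta2* in controls. Summed immune markers were at 3.44–10.2 and 4.13–11.0 CPM, and summed endothelial markers (4 genes, *Cdh5* and *Kdr* at 0 throughout) at 1.27–3.44 and 0–1.61 CPM. Of the epithelial markers, *Krt18*, *Krt19* and *Cldn7* fell by 0.70, 0.30 and 0.53 on the log2 scale. Paneth (4 genes) and goblet (4 genes) markers had no calls, and of 6 enterocyte markers *Apoa1* rose by 0.33 on the same scale. The part of the M cell and stromal markers in the changes of *Fas*, *Tnfrsf10b* and *Cflar* was not tested. In these bulk libraries, more RNA per cell and more cells of a type that holds the transcript cannot be told apart.

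For each of the 3 genes that rose, the genes with the most similar pattern over the 8 libraries were taken by Pearson's r of log2 CPM among 9930 tested genes. They were *Kbtbd11* (0.991) and *H2afy* (0.987) for *Fas*, *Cdc42se1* (0.991) and *Atp6v1d* (0.987) for *Tnfrsf10b*, and *F8a* (0.990) and *Asap1* (0.977) for *Cflar*. All points share the split into control and RANKL libraries and their depths, and r does not depend on the size of a change. *H2afy*, for example, had a log2 fold change of 0.23 and *Asap1* one of 1.70.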

How the data were processed

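Total RNA of 4 control and 4 RANKL-treated organoid libraries was profiled with the Lexogen QuantSeq 3′ mRNA-Seq kit (forward), which reads the 3′ end of transcripts, on an Illumina HiSeq instrument with single reads of 50 bases. Per the study's methods, the authors trimmed reads with BBDuk, removed ribosomal and other abundant reads with bowtie2, aligned to GRCm38 (mm10) with STAR, using Ensembl release 94, and counted reads per gene strand-specifically with featureCounts. The deposited values are raw counts per gene. No molecular identifiers are mentioned, so it could not be checked that counts are independent, as intervals from pooled counts assume. Those intervals also leave out the spread between libraries. The authors' test was DESeq2.

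Here, genes were tested with edgeR 4.0.16 (TMM, filterByExpr, quasi-likelihood test, Benjamini-Hochberg over 9971 genes, threshold 0.05), in R 4.3.3, on a pipeline tested on simulated data. Symbols and positions came from GENCODE M21 for 54495 of 54532 identifiers; the others held 0.00675% of counts. Alternatives used DESeq2 1.42.0, limma 3.58.1 (voom), other scalings, filters and thresholds, the library total as a covariate, the replicate number as a block and the removal of each library. Single values were compared by two-sided exact permutation tests in Python 3.11.15 (SciPy 1.17.1). Ratios used a pseudocount of 0.5 counts. Replicate pairs of a group differed by more than sampling noise (chi-square per degree of freedom 1.25–11.9).

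The 8 genes and the lists were chosen with earlier results of these data known. All 8 are described, with caspases of the further list and each list gene past the threshold; *Fasl*, *Mlkl* and *Il1b* are named to show what was not tested. The nearest patterns were the 2 tested genes of highest r at a mean of at least 5 CPM. The stricter NF-κB motif has 10 letters. Markers of epithelium, immune, stromal, endothelial, M, Paneth, enterocyte and goblet cells are given as levels. Some genes of the fixed lists are counted in the totals but not reported here individually.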

Additional observations from a re-analysis of the deposited data

Results flagged for a closer look

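In groups of 4 libraries, a single library far from the other 3 was looked for by Dixon's ratio in the levels of the genes described, of the other tested caspase genes and of the called list genes, and in both ratios. Of 56 groups, 2 held one, and chance gives about 1 in 20, or 2.8. *Casp1* in RANKL replicate 4 stood at 55.47 CPM, below the other RANKL libraries, the nearest of which was at 64.58 CPM; without that replicate, *Casp1* had an edgeR adjusted p of 0.045 in place of 0.051. *Tnf* in RANKL replicate 1, a shallow library, stood at 6.458 CPM on 4 counts, with the nearest at 9.636 CPM.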

How the results depend on the processing

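*Fas*, *Tnfrsf10b* and *Cflar* were higher and past the threshold under every alternative that tested them, with adjusted p of 1.7e-05 to 0.02, 3.2e-05 to 0.013 and 0.0008 to 0.029. Requiring 10 counts in every library left *Fas*, *Tnfrsf10b* and *Fadd* untested and lowered the list calls from 15 to 9, since fewer genes were tested. *Casp1* passed with library totals alone (0.38), under that filter (0.37) and with the replicate block (0.42), and ranged from 0.30 to 0.46 when single libraries were left out; the cause was not tested. Between 2 and 4 of the 8 genes were called. *Casp6* turned to 0.02 with the replicate block and with the total as a covariate (-0.10 to 0.06 without single libraries). *Casp8* ranged from -0.05 (without control replicate 3) to 0.17 without single libraries and was 0.30 with the covariate. *Fadd* ranged from 0.11 to 0.48 without single libraries. *Casp2* turned to -0.02 without a filter and with the block, and to -0.15 with the covariate (-0.13 to 0.18 without single libraries). Thinning all libraries to the smallest total gave a *Fas* to *Cflar* difference of 1.35 (exact permutation p = 0.0286) and a *Cflar* to *Casp8* difference of 0.28 (exact permutation p = 0.514), neither p adjusted over the 2 ratios. Without single libraries that of *Fas* to *Cflar* was 1.06 to 1.57, and that of *Cflar* to *Casp8* was 0.28 to 0.55; 3 against 4 cannot go below an exact p of 0.0571.

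Over all genes, 2587 calls became 1636 at an adjusted p of 0.01 and 1853 to 2601 without single libraries. Lower calls went from 1232 to 808 with the covariate, 707 at 0.01, and 814 (without RANKL replicate 4) to 1234 without single libraries; higher calls were then 1039 to 1367, and list calls 11 to 18. Without control replicate 4 and RANKL replicate 1, an alternative chosen after seeing the data, 2279 genes, 3 of the 8 and 14 list genes were called. In the lists, that alternative set aside, calls were lost under 10 alternatives (the 0.01 threshold included) for *Pycard*, 8 for *Diablo*, 7 for *Cradd* and 3 for *Tax1bp1*.

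No clear pairing of libraries by replicate number was seen. Same-numbered deviations correlated at -0.0334 to 0.101, others at -0.134 to 0.086, and 3 of 8 libraries correlated best with their own number. So few pairs cannot decide whether the libraries were paired. The block gave 2610 calls. Apart from *Casp1*, the call of none of the 8 genes changed with the block. As a limit of depth, 3 counts equal 5.14 CPM in control replicate 4, above the levels of *Fas* and *Tnfrsf10b* there.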
